A study of Mus musculus with 28 samples.

Results

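The genes described here mark lymphocytes in mouse liver: 27 genes of T cells and natural killer (NK) cells and 7 genes of B cells and the antibody-secreting plasma cells that B cells become. They were taken as a list of gene symbols, with no measured threshold, and all 34 were found by Ensembl ID among the 22187 genes of the expression table. The values are counts per 1000000 mapped reads (CPM) from RNA sequencing of whole tissue, in 14 tumor libraries and 14 libraries of non-tumor liver. All mice were C57BL/6 and received the liver carcinogen diethylnitrosamine (DEN, 25 mg/kg) at 2 weeks of age before 18 weeks of feeding. Mice labelled dHEP carried floxed Il17ra, the gene of interleukin-17 receptor A, together with Cre recombinase driven by the albumin promoter, which deletes the gene in hepatocytes and not in lymphocytes. Mice labelled FF carried floxed Il17ra and are given no Cre in the labels. Each genotype was kept on an alcohol diet (4 mice) or on chow (3 mice), and every mouse of a group gave 1 tumor and 1 non-tumor library, except that the FF chow tumors (FF-167, FF-168 and FF-169) and the FF chow non-tumor livers (FF-157, FF-158 and FF-159) carry different mouse numbers. In the labels the alcohol diet appears under 2 names, high-fat feeding with alcohol and an isocaloric liquid ethanol diet. Mouse numbers run from FF-503 to FF-595 on alcohol and from dHEP-155 to FF-169 on chow, and the labels name no batch.

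T cells recognise antigen through a receptor that signals inside the cell through the CD3 chains and the kinases Lck and Zap70, with CD4 or CD8 as coreceptor. Cytotoxic T cells and NK cells kill through granules that hold perforin and granzymes, and T cells exposed to antigen for a long time carry the inhibitory receptors PD-1 and CTLA-4. B cells recognise antigen through surface antibody coupled to CD79a and CD79b, and plasma cells secrete antibody in bulk, with the J chain joining the units of IgA and IgM. The normal mouse liver holds many resident NK and T cells, and carcinogen-induced liver tumors are known to be infiltrated by both T and B lineage cells. In whole tissue, fewer cells of a type and less RNA per cell cannot be told apart.

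Values below are listed by mouse in a set order. The dHEP mice on alcohol are dHEP-518, dHEP-520, then dHEP-549 and dHEP-550, the FF mice on alcohol are FF-503, FF-523, then FF-581 and FF-595, and the dHEP mice on chow are dHEP-155, dHEP-164 and dHEP-165. For FF mice on chow the order is FF-167, FF-168 and FF-169 for tumors and FF-157, FF-158 and FF-159 for non-tumor liver. Depth, worked out from the CPM that 1 read is worth, was 9.57 to 17.8 M reads per library. It was 16.6 to 17.8 M reads in FF chow tumors and 9.57 to 16.9 M reads in FF chow non-tumor liver. Il17ra read 8.38 to 29.4 CPM in dHEP tumors against 20.8 to 33.9 CPM in FF tumors, and 8.34 to 13.0 CPM in dHEP non-tumor liver against 14.7 to 31.0 CPM in FF non-tumor liver, so the dHEP tumors overlapped the FF tumors. Of the liver tumor marker Afp, alpha-fetoprotein, the tumor library of dHEP-549 had 5.47 CPM and the other 13 tumor libraries had at least 33.4 CPM. The non-tumor livers of FF-523 and FF-581 had 212.7 and 159.2 CPM of Afp, and every other non-tumor liver at most 8.82 CPM. Of Gpc3, a further tumor marker, the tumors of dHEP-549 and dHEP-550 had 0.473 and 1.66 CPM, and the others at least 16.1 CPM. In non-tumor liver Gpc3 read 25.8 CPM in FF-523, 17.6 CPM in FF-581, 15.6 CPM in FF-158 and at most 3.80 CPM elsewhere. The comparison of tissues in FF mice on alcohol was not tested with both FF-523 and FF-581 left out. The tumor of dHEP-155 stood apart in a list of Kupffer cell and macrophage genes, whose summed level was 3691 CPM there, and at most 1715 CPM in the other 13 tumors. That list shares the gene Spp1 with a list of cholangiocyte genes, which summed to 3168 CPM in the same tumor. The part of Spp1 in either sum was not tested.

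Lymphocyte transcripts were scarce. Of the 34 genes, 19 had a mean below 1 CPM over the 28 libraries, 16 of them T or NK cell genes and 3 B or plasma cell genes, and 562 of the 952 values (59.0%) rested on fewer than 10 reads. Zap70 alone reached 1 CPM in all 28 libraries. Ifng, which encodes the cytokine interferon-gamma, and Ncr1, which encodes the NK cell receptor NKp46, reached 1 CPM in none. Ifng had 0 reads in 15 libraries, where a count of 0 allows up to 3 reads, or 0.175 to 0.313 CPM depending on the library (counting error only). In mean level, Jchain led the B and plasma cell genes with 80.6 CPM, ahead of Cd79a with 1.60 CPM and Cd79b with 1.33 CPM. Among T and NK cell genes the highest means belonged to Zap70 (8.97 CPM), Il2rb (3.48 CPM), Ccl5 (2.45 CPM) and Cd8a (2.19 CPM). Per kilobase of exon, the scale on which genes can be set against each other, Jchain stood at 32.0, Zap70 at 2.999 and Ccl5 at 2.56 CPM per kb. The defining markers of NK cells (Ncr1) and of mature B cells (Ms4a1, which encodes CD20, and Pax5, the B cell identity factor) lay near the floor, with means of 0.195 CPM for Ncr1, 0.514 CPM for Ms4a1 and 0.239 CPM for Pax5.

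**Figure D1:**
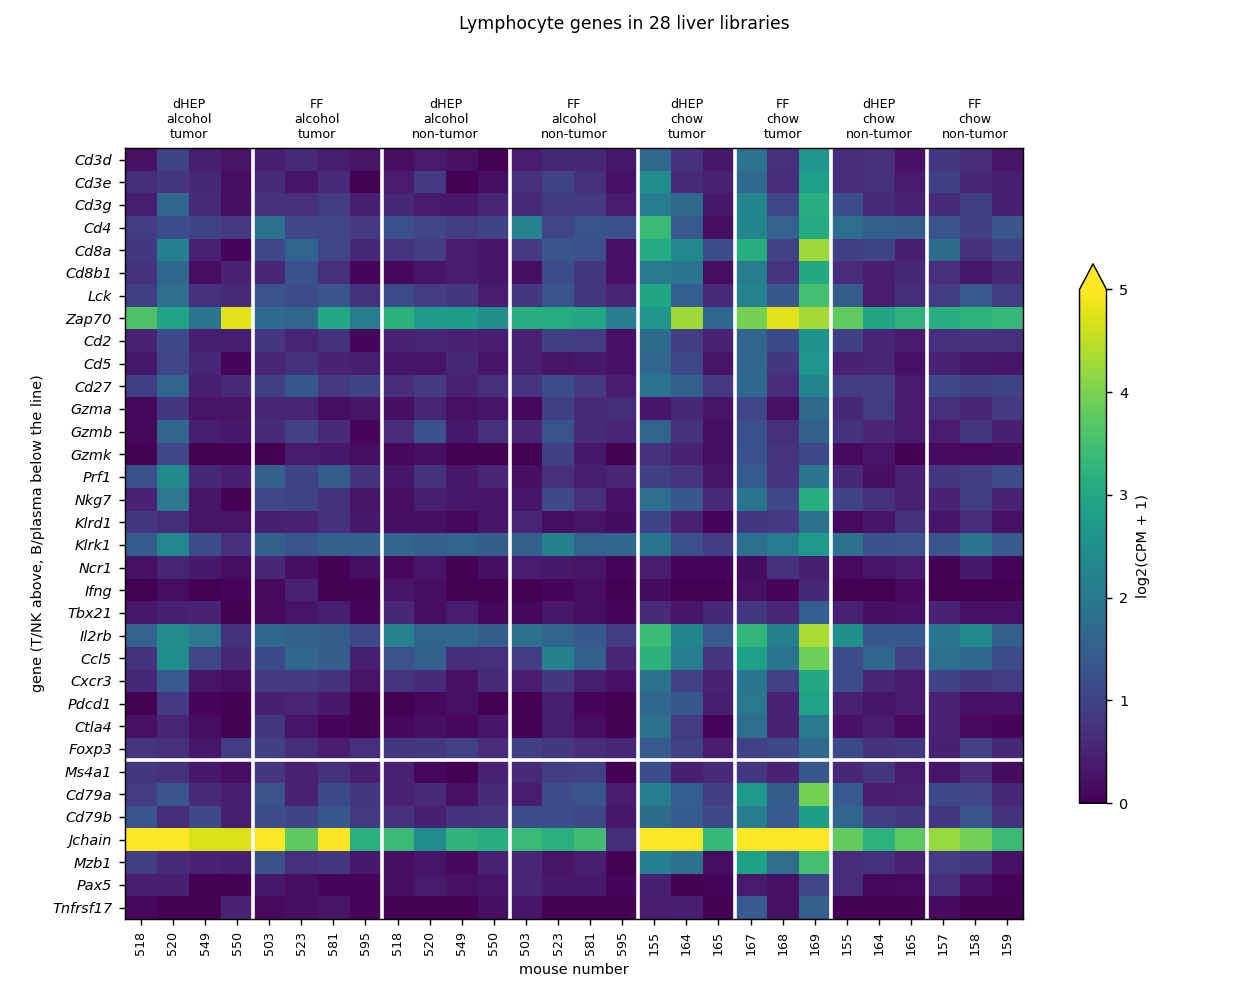
Level of each of the 34 genes (rows) in each of the 28 libraries (columns), as log2(CPM + 1) with the colour scale capped at 5; T and NK cell genes stand above the line and B and plasma cell genes below it. Most cells of the map are near 0, Zap70 and Jchain are visible in nearly every library, and 28 of the 34 genes have their highest value in the tumor of FF-169.

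One library held the top of the range for most of the list. The tumor of FF-169, on chow, had the highest value of all 28 libraries for 21 of the 27 T and NK cell genes and for all 7 B and plasma cell genes. The counts of the 34 genes called in FF chow tumors against non-tumor liver are therefore given with and without that library. Counts for the lists of other markers, further below, are given only with it. Tests were run on log2(CPM + 1) over all genes that reached 1 CPM in at least 3 of the fitted libraries, and a gene was called at a Benjamini-Hochberg adjusted p below 0.05 over all tested genes. In the fit of all 28 libraries 26 of the 34 genes passed that filter, 22 of T and NK cells and 4 of B and plasma cells. Of those 26, 7 reached 1 CPM in tumors only (Cd3d, Cd2, Cd5, Gzmk, Pdcd1, Ctla4 and Mzb1), so they entered the tests through the tissue in which they were high. Cd3e, Cd3g, Cd8b1, Prf1 and Foxp3 reached it in 1 non-tumor liver each, and Gzmb, Nkg7 and Cxcr3 in 2. These too passed the filter only with tumor libraries counted. The 8 genes that did not pass were Gzma, Klrd1, Ncr1, Ifng, Tbx21, Ms4a1, Pax5 and Tnfrsf17.

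Tumors were compared with non-tumor liver within each genotype and diet. In FF mice on chow, 17 of the 26 tested genes rose in tumors, 13 of 22 T and NK cell genes and 4 of 4 B and plasma cell genes, and none fell. In the same comparison 21.2% of all tested genes were called higher, 9.55% lower and 30.8% in either direction. Leaving out the 7 genes that reached 1 CPM in tumors only, 10 of 19 rose, 7 of 16 of T and NK cells and 3 of 3 of B and plasma cells. Of these 10, Cd3g, Cd8b1, Nkg7 and Cxcr3 also passed the filter only with tumor libraries counted. Cd8a, Lck, Il2rb, Cd79a, Cd79b and Jchain passed it in non-tumor liver alone. Jchain, Mzb1 and Cd79a had the smallest adjusted p-values. In dHEP mice on chow Jchain was the 1 gene of the list that rose, where 17.2% of all genes were called higher. On alcohol, limma called 0 of the 26 in dHEP mice and 0 in FF mice (2 in each at an unadjusted p below 0.05), where 20.4% of all genes were called in either direction in dHEP mice and 24.6% in FF mice. The shares of all genes at an unadjusted p below 0.05 were 33.5% in dHEP mice on alcohol and 35.9% in FF mice on alcohol. Averaged over the 4 genotype and diet groups, 18 genes rose, 14 of T and NK cells and 4 of B and plasma cells, against 37.6% of all genes called higher. Without the 7 genes that reached 1 CPM in tumors only, 11 of 19 rose in the average. The 4 groups did not share alike in it. The median log2 fold change of the 26 was 1.18 in FF mice on chow and 0.61 in dHEP mice on chow. On alcohol it was 0.19 in dHEP mice and 0.07 in FF mice. Without FF-169, 4 genes remained called in FF mice on chow (Jchain, Mzb1, Cd79a and Cd5) and 13 in the average. In FF mice on chow 11 were called without the tumor of FF-167 and 10 without the non-tumor liver of FF-159, and a fit of the 6 FF chow libraries alone called 4 (Zap70, Cd79a, Jchain and Mzb1). The counts of these alternative fits include genes that reached 1 CPM in tumors only. The share of all genes called in each such fit is not given here. FF chow tumors and FF chow non-tumor livers came from different mice, so no pairing could be used there. Scaling the libraries by median of ratios moved the median log2 fold change of all genes by -0.15 in FF mice on chow, and the 26 genes were all higher in these tumors, in estimate, under both scalings. Of all called genes, 69.0% were higher as deposited and 53.4% after that scaling in FF mice on chow, 61.8% and 49.2% in dHEP mice on chow, 63.0% and 49.6% in dHEP mice on alcohol, and 64.2% and 51.6% in the average.

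**Figure D2:**
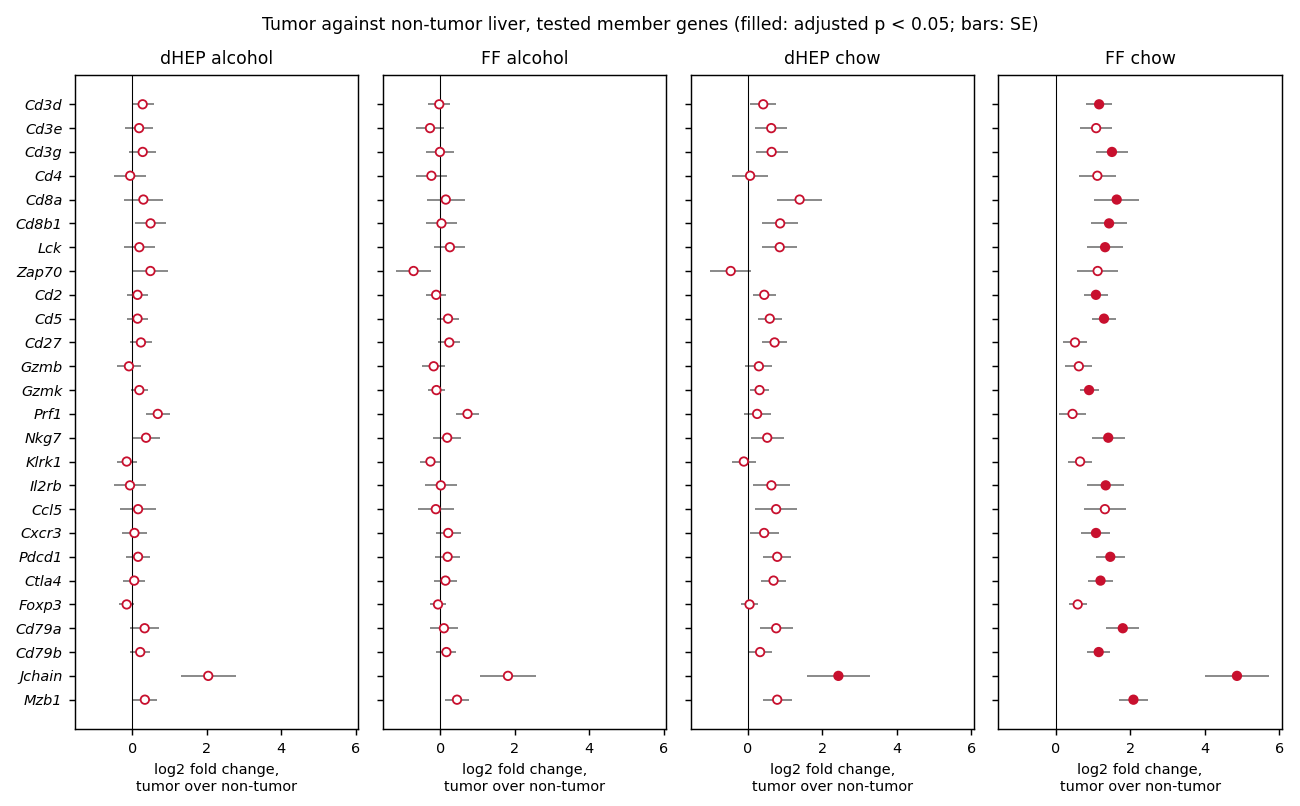
Log2 fold change of tumor over non-tumor liver for the 26 tested genes, on the log2(CPM + 1) scale, in the 4 genotype and diet groups (panels); bars are standard errors of the fit and filled points have an adjusted p below 0.05. In FF mice on chow 17 points are filled, in dHEP mice on chow only Jchain is, and on alcohol no point is filled.

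Of the 26 tested genes Jchain and Mzb1 had the largest log2 fold changes in FF mice on chow, and Jchain had the largest in the other 3 groups too. Jchain encodes the joining chain of IgA and IgM and lies at chr5:88519809-88527891 (minus strand, GRCm38). On alcohol, Jchain read 42.2, 42.6, 25.6 and 25.7 CPM in dHEP tumors against 9.50, 4.36, 8.50 and 7.76 CPM in dHEP non-tumor liver, and 66.0, 12.5, 30.6 and 7.99 CPM in FF tumors against 9.43, 8.01, 10.1 and 0.576 CPM in FF non-tumor liver. On chow, Jchain read 179, 146 and 9.25 CPM in dHEP tumors against 12.8, 8.37 and 12.4 CPM in dHEP non-tumor liver, and 582.0, 158.7 and 796 CPM in FF tumors against 17.8, 14.3 and 9.42 CPM in FF non-tumor liver. Every FF chow tumor and every dHEP alcohol tumor lay above all non-tumor livers of its own group, whereas the groups overlapped in FF mice on alcohol (FF-595 was low in both tissues) and in dHEP mice on chow (the tumor of dHEP-165). The dHEP mice on chow averaged 111 ± 90.02 CPM in tumors and 11.2 ± 2.47 CPM in non-tumor liver, and the FF mice on chow averaged 512 ± 324 CPM in tumors and 13.8 ± 4.19 CPM in non-tumor liver (SD, n = 3 each). The log2 fold change of tumor over non-tumor liver was 2.04 ± 0.74 (SE, adjusted p = 0.053) in dHEP mice on alcohol, 1.82 ± 0.74 (SE, adjusted p = 0.076) in FF mice on alcohol, 2.43 ± 0.86 (SE, adjusted p = 0.037) in dHEP mice on chow and 4.87 ± 0.86 (SE, adjusted p = 0.00025) in FF mice on chow. Within the 11 mice that gave both tissues Jchain was higher in the tumor of 10, by 1.56 to 17.5 times, and in dHEP-165 the tumor held 0.744 times the non-tumor level. Jchain's call in FF mice on chow held without each of the 6 libraries in turn. The call in dHEP mice on chow was lost in 5 of the 6 fits that left out 1 of their libraries. With the mouse number as a block, which uses the pairing of tumor and non-tumor liver by mouse, Jchain was also called in dHEP mice on alcohol (adjusted p = 0.030) and in FF mice on alcohol (adjusted p = 0.042), and its adjusted p in dHEP mice on chow was 0.021.

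Mzb1 encodes an endoplasmic reticulum chaperone used in antibody assembly, and it entered the test through tumors only. On alcohol, Mzb1 read 0.910, 0.503, 0.405 and 0.333 CPM in dHEP tumors against 0.158, 0.218, 0.0817 and 0.384 CPM in dHEP non-tumor liver, and 1.35, 0.586, 0.727 and 0.266 CPM in FF tumors against 0.456, 0.2002, 0.330 and 0 CPM in FF non-tumor liver. On chow, Mzb1 read 3.45, 2.63 and 0.135 CPM in dHEP tumors against 0.562, 0.667 and 0.377 CPM in dHEP non-tumor liver, and 6.14, 2.47 and 10.5 CPM in FF tumors against 0.836, 0.725 and 0.178 CPM in FF non-tumor liver. All 3 FF chow tumors stood above the 3 FF chow non-tumor livers, while on alcohol the highest of the 16 values was 1.35 CPM, in the tumor of FF-503. The log2 fold change in FF mice on chow was 2.09 ± 0.39 (SE, adjusted p = 0.00040), with group means of 6.37 ± 4.03 CPM in tumors and 0.579 ± 0.352 CPM in non-tumor liver (SD, n = 3 each). It was 0.79 ± 0.39 (SE, adjusted p = 0.13) in dHEP mice on chow. Without FF-169 the FF chow tumors averaged 4.30 CPM of Mzb1, and 370.3 CPM of Jchain. The remaining plasma cell gene, Tnfrsf17, which encodes the survival receptor BCMA, was read at 0 in 14 libraries and was highest at 1.87 CPM in the tumor of FF-169. It did not pass the filter, and with no filter it was called in FF mice on chow.

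The B cell receptor genes rose in the same tumors at lower levels. Cd79a encodes 1 of the signalling chains of the B cell receptor and lies at chr7:24897381-24902197 (plus strand, GRCm38). On alcohol, Cd79a read 0.828, 1.51, 0.540 and 0.333 CPM in dHEP tumors against 0.396, 0.509, 0.163 and 0.538 CPM in dHEP non-tumor liver, and 1.44, 0.366, 1.19 and 0.732 CPM in FF tumors against 0.304, 1.27, 1.45 and 0.320 CPM in FF non-tumor liver. On chow, Cd79a read 3.39, 1.81 and 0.878 CPM in dHEP tumors against 1.69, 0.296 and 0.377 CPM in dHEP non-tumor liver, and 5.44, 1.80 and 14.5 CPM in FF tumors against 1.15, 1.09 and 0.474 CPM in FF non-tumor liver. The FF chow tumors did not overlap the FF chow non-tumor livers, and the tumor of FF-169 held by far the highest value of the 3. Its log2 fold change in FF mice on chow was 1.80 ± 0.44 (SE, adjusted p = 0.0036). Without FF-169 the FF chow tumors averaged 3.62 CPM. Cd79b encodes the partner chain. On alcohol, Cd79b read 1.49, 0.575, 1.15 and 0.333 CPM in dHEP tumors against 0.634, 0.364, 0.654 and 0.691 CPM in dHEP non-tumor liver, and 1.26, 1.03, 1.59 and 0.799 CPM in FF tumors against 1.22, 1.27, 1.12 and 0.256 CPM in FF non-tumor liver. On chow, Cd79b read 2.38, 1.75 and 1.15 CPM in dHEP tumors against 2.06, 0.889 and 0.753 CPM in dHEP non-tumor liver, and 3.33, 1.68 and 5.86 CPM in FF tumors against 0.731, 1.54 and 0.652 CPM in FF non-tumor liver. Tumors of FF mice on chow again lay above all of their non-tumor livers, by a small margin for FF-168, and the log2 fold change was 1.15 ± 0.31 (SE, adjusted p = 0.0071). On alcohol neither chain passed the test, with log2 fold changes for Cd79a of 0.33 in dHEP mice and 0.10 in FF mice, and for Cd79b of 0.21 in dHEP mice and 0.17 in FF mice. The mature B cell markers did not pass the filter: Ms4a1 was highest at 1.57 CPM and Pax5 at 1.09 CPM, both in the tumor of FF-169. The summed level of the 6 genes other than Jchain was 19.9 ± 14.5 CPM in FF chow tumors and 3.07 ± 1.39 CPM in FF chow non-tumor liver (SD, n = 3 each).

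**Figure D3:**
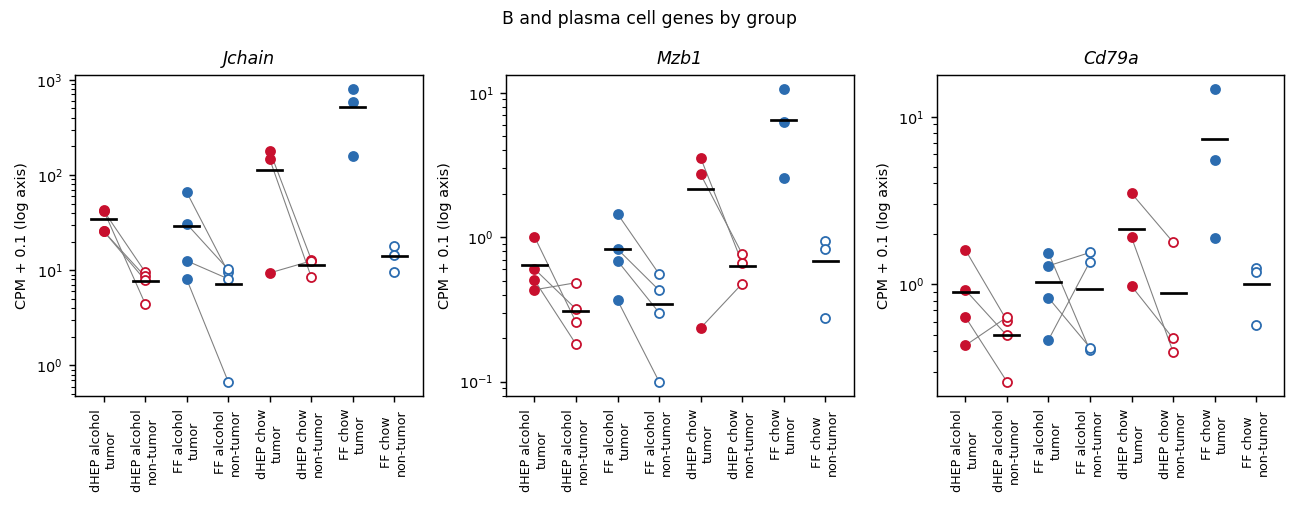
Jchain, Mzb1 and Cd79a in each library, as CPM + 0.1 on a log axis, by genotype, diet and tissue; filled points are tumors, open points non-tumor liver, red dHEP and blue FF, thin lines join libraries of 1 mouse and short bars are group means. Jchain spans 158.7 to 796 CPM in FF chow tumors and 9.42 to 17.8 CPM in FF chow non-tumor liver, and 1 line, that of dHEP-165, runs the other way.

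Among the T cell receptor genes, Cd3d, Cd3g and Lck rose in FF chow tumors, and Cd3e and Zap70 did not pass the test. Of these, Cd3d entered the test through tumors only. Cd3g encodes a chain of the CD3 complex. On alcohol, Cd3g read 0.331, 2.23, 0.540 and 0.133 CPM in dHEP tumors against 0.475, 0.291, 0.245 and 0.461 CPM in dHEP non-tumor liver, and 0.631, 0.586, 0.860 and 0.333 CPM in FF tumors against 0.532, 0.801, 0.791 and 0.320 CPM in FF non-tumor liver. On chow, Cd3g read 3.28, 2.34 and 0.270 CPM in dHEP tumors against 1.31, 0.518 and 0.377 CPM in dHEP non-tumor liver, and 3.92, 1.07 and 7.91 CPM in FF tumors against 0.522, 0.906 and 0.355 CPM in FF non-tumor liver. The 3 FF chow tumors were above their non-tumor livers, FF-168 only just, and the log2 fold change was 1.51 ± 0.43 (SE, adjusted p = 0.010). Cd3d, another CD3 chain, averaged 2.83 ± 2.26 CPM in FF chow tumors and 0.504 ± 0.250 CPM in FF chow non-tumor liver (SD, n = 3 each), a log2 fold change of 1.16 ± 0.34 (SE, adjusted p = 0.013). Lck, the kinase that phosphorylates the CD3 chains, averaged 5.25 ± 4.67 CPM in FF chow tumors and 1.10 ± 0.461 CPM in FF chow non-tumor liver (SD, n = 3 each), a log2 fold change of 1.32 ± 0.48 (SE, adjusted p = 0.038). The groups overlapped for both through FF-168. Cd3e, the third CD3 chain, had 1.08 ± 0.43 (SE, adjusted p = 0.059) and was highest at 6.10 CPM in the tumor of FF-169. Zap70 encodes the kinase that binds the phosphorylated CD3 chains. On alcohol, Zap70 read 11.1, 6.54, 2.77 and 25.9 CPM in dHEP tumors against 8.24, 5.75, 5.96 and 4.53 CPM in dHEP non-tumor liver, and 2.35, 2.13, 7.14 and 3.33 CPM in FF tumors against 7.76, 7.54, 7.12 and 3.39 CPM in FF non-tumor liver. On chow, Zap70 read 5.18, 18.5 and 2.23 CPM in dHEP tumors against 12.7, 6.81 and 8.57 CPM in dHEP non-tumor liver, and 14.7, 26.5 and 19.1 CPM in FF tumors against 7.94, 8.42 and 9.004 CPM in FF non-tumor liver. Zap70 was high in FF chow tumors and also in the tumors of dHEP-550 on alcohol and dHEP-164 on chow, and the tumor of dHEP-550 held 0.133 CPM of Cd3e. The groups did not overlap in FF mice on chow, yet the log2 fold change of 1.12 ± 0.55 (SE, adjusted p = 0.13) missed the threshold.

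Both CD8 chains rose in FF chow tumors and Cd4 did not pass the test. Cd8a encodes the alpha chain of the coreceptor on cytotoxic T cells. On alcohol, Cd8a read 0.745, 3.45, 0.405 and 0.0665 CPM in dHEP tumors against 0.713, 0.828, 0.327 and 0.230 CPM in dHEP non-tumor liver, and 1.08, 2.05, 1.06 and 0.466 CPM in FF tumors against 0.798, 1.54, 1.32 and 0.192 CPM in FF non-tumor liver. On chow, Cd8a read 7.43, 4.03 and 1.22 CPM in dHEP tumors against 0.937, 1.04 and 0.331 CPM in dHEP non-tumor liver, and 7.89, 0.952 and 18.3 CPM in FF tumors against 2.40, 0.634 and 1.01 CPM in FF non-tumor liver. Tumors of dHEP mice on chow were all above their non-tumor livers, and FF chow tumors overlapped theirs through FF-168. The log2 fold change was 1.39 ± 0.60 (SE, adjusted p = 0.087) in dHEP mice on chow and 1.64 ± 0.60 (SE, adjusted p = 0.041) in FF mice on chow. With the mouse number as a block Cd8a was called in dHEP mice on chow (adjusted p = 0.0062), together with Lck (adjusted p = 0.048) and Cd27 (adjusted p = 0.030). Cd8b1 encodes the beta chain. On alcohol, Cd8b1 read 0.662, 2.16, 0.135 and 0.401 CPM in dHEP tumors against 0.0792, 0.218, 0.328 and 0.231 CPM in dHEP non-tumor liver, and 0.454, 1.39, 0.596 and 0.0666 CPM in FF tumors against 0.153, 1.27, 0.725 and 0.192 CPM in FF non-tumor liver. On chow, Cd8b1 read 3.04, 2.92 and 0.135 CPM in dHEP tumors against 0.562, 0.296 and 0.473 CPM in dHEP non-tumor liver, and 3.33, 0.673 and 7.26 CPM in FF tumors against 0.628, 0.273 and 0.474 CPM in FF non-tumor liver. It followed Cd8a at lower levels, with FF-168 close to the non-tumor livers, and its log2 fold change in FF mice on chow was 1.43 ± 0.48 (SE, adjusted p = 0.025). Cd4, the coreceptor of helper and regulatory T cells, ranged from 0.135 CPM to 9.29 CPM, highest in the tumor of dHEP-155, with a log2 fold change of 1.12 ± 0.49 (SE, adjusted p = 0.086) in FF mice on chow. Without FF-169 the FF chow tumors averaged 4.42 CPM of Cd8a, and neither CD8 chain was called.

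Of the costimulatory and adhesion receptors, Cd2 and Cd5 rose in FF chow tumors and Cd27 did not pass the test. Cd5 encodes a receptor that dampens T cell receptor signalling and lies at chr19:10717116-10739002 (minus strand, GRCm38). On alcohol, Cd5 read 0.248, 1.08, 0.473 and 0.0665 CPM in dHEP tumors against 0.238, 0.218, 0.490 and 0.230 CPM in dHEP non-tumor liver, and 0.451, 0.660, 0.397 and 0.333 CPM in FF tumors against 0.380, 0.2002, 0.264 and 0.192 CPM in FF non-tumor liver. On chow, Cd5 read 2.14, 1.11 and 0.203 CPM in dHEP tumors against 0.375, 0.444 and 0.188 CPM in dHEP non-tumor liver, and 2.10, 0.729 and 5.13 CPM in FF tumors against 0.418, 0.272 and 0.237 CPM in FF non-tumor liver. All 3 FF chow tumors stood above their non-tumor livers, and no non-tumor liver reached 1 CPM. The log2 fold change in FF mice on chow was 1.29 ± 0.33 (SE, adjusted p = 0.0048). It ranged from 0.83 to 1.74 as each of the 6 libraries was left out, with the call kept, and the call was lost in the fit of these 6 libraries alone. Both Cd5 and Cd2 entered the test through tumors only. Cd2, an adhesion receptor of T and NK cells, averaged 2.73 ± 1.93 CPM in FF chow tumors and 0.618 ± 0.0223 CPM in FF chow non-tumor liver (SD, n = 3 each), with no overlap and a log2 fold change of 1.08 ± 0.31 (SE, adjusted p = 0.012), and Cd27, a costimulatory receptor of T and B cells, had 0.52 ± 0.34 (SE, adjusted p = 0.26). Cd27 overlaps Vamp1 on the opposite strand, and the strand setting of the counting is not given in the sources used here.

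The inhibitory receptor genes Pdcd1 and Ctla4 rose in FF chow tumors from very low levels, and both entered the test through tumors only. Pdcd1 encodes PD-1 and lies at chr1:94038305-94052553 (minus strand, GRCm38). On alcohol, Pdcd1 read 0, 0.791, 0.0675 and 0 CPM in dHEP tumors against 0, 0.0727, 0.163 and 0 CPM in dHEP non-tumor liver, and 0.361, 0.440, 0.265 and 0 CPM in FF tumors against 0, 0.334, 0.0659 and 0 CPM in FF non-tumor liver. On chow, Pdcd1 read 2.20, 1.58 and 0.338 CPM in dHEP tumors against 0.375, 0.222 and 0.282 CPM in dHEP non-tumor liver, and 2.98, 0.393 and 6.46 CPM in FF tumors against 0.418, 0.181 and 0.178 CPM in FF non-tumor liver. The tumors of FF-167 and FF-169 were high, and that of FF-168 fell within the non-tumor range, so the groups overlapped. Its log2 fold change was 1.46 ± 0.38 (SE, adjusted p = 0.0059). Ctla4 encodes CTLA-4, which competes with CD28 for its ligands. On alcohol, Ctla4 read 0.166, 0.431, 0.135 and 0 CPM in dHEP tumors against 0.0792, 0.145, 0.0817 and 0.230 CPM in dHEP non-tumor liver, and 0.722, 0.220, 0.0661 and 0 CPM in FF tumors against 0, 0.334, 0.132 and 0 CPM in FF non-tumor liver. On chow, Ctla4 read 2.62, 0.817 and 0.0675 CPM in dHEP tumors against 0.187, 0.296 and 0.0942 CPM in dHEP non-tumor liver, and 2.46, 0.393 and 3.14 CPM in FF tumors against 0.418, 0.0906 and 0.0592 CPM in FF non-tumor liver. FF-168 again overlapped the non-tumor livers, and the log2 fold change was 1.20 ± 0.35 (SE, adjusted p = 0.011). Pdcd1 lost its call without FF-169. Ctla4 reached 1 CPM in only 3 libraries and was not tested without the tumor of FF-167 or of FF-169. Foxp3, the transcription factor of regulatory T cells, did not pass the test, at 0.59 ± 0.24 (SE, adjusted p = 0.065), and it was highest at 2.25 CPM in the tumor of FF-169. Foxp3 overlaps 3 genes on the opposite strand and Flicr on the same strand, and most of its values were not whole reads. Other overlaps were Gzmk with Esm1 and Zap70 with Gm18828 (opposite strand), and Mzb1 with SPATA24 and Ctla4 with Rpl18-ps1 (same strand). Values of Gzmk, Zap70, Mzb1 and Ctla4 were whole reads in all 28 libraries.

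Cytotoxic granule genes moved unevenly. Gzmk encodes granzyme K, and it entered the test through tumors only. On alcohol, Gzmk read 0, 1.08, 0 and 0 CPM in dHEP tumors against 0.0792, 0.145, 0 and 0 CPM in dHEP non-tumor liver, and 0, 0.293, 0.265 and 0.133 CPM in FF tumors against 0, 0.934, 0.264 and 0 CPM in FF non-tumor liver. On chow, Gzmk read 0.596, 0.409 and 0.135 CPM in dHEP tumors against 0.0937, 0.222 and 0 CPM in dHEP non-tumor liver, and 1.40, 0.673 and 1.15 CPM in FF tumors against 0.104, 0.0906 and 0.118 CPM in FF non-tumor liver. Gzmk was at 0 in 9 libraries, and the 3 FF chow tumors, at 1.40 CPM or less, were above their non-tumor livers, with a log2 fold change of 0.89 ± 0.26 (SE, adjusted p = 0.011). It reached 1 CPM in only 3 libraries and was not tested without the tumor of FF-167 or of FF-169. Nkg7, which encodes a granule membrane protein, averaged 3.93 ± 3.50 CPM in FF chow tumors and 0.579 ± 0.283 CPM in FF chow non-tumor liver (SD, n = 3 each), a log2 fold change of 1.41 ± 0.44 (SE, adjusted p = 0.018). Prf1 encodes perforin. On alcohol, Prf1 read 1.41, 4.24, 0.473 and 0.333 CPM in dHEP tumors against 0.238, 0.655, 0.245 and 0.461 CPM in dHEP non-tumor liver, and 1.89, 1.03, 1.79 and 0.666 CPM in FF tumors against 0.152, 0.601, 0.330 and 0.448 CPM in FF non-tumor liver. On chow, Prf1 read 0.893, 0.701 and 0.203 CPM in dHEP tumors against 0.469, 0.148 and 0.377 CPM in dHEP non-tumor liver, and 1.75, 0.673 and 2.90 CPM in FF tumors against 0.731, 0.815 and 1.24 CPM in FF non-tumor liver. Prf1 was higher in the tumor than in the non-tumor liver of 9 of the 11 mice that gave both, and in FF mice on alcohol all 4 tumors lay above all 4 non-tumor livers. It passed the test in no single group, with log2 fold changes of 0.68 ± 0.32 (SE, adjusted p = 0.13) in dHEP mice on alcohol and 0.73 ± 0.32 (SE, adjusted p = 0.094) in FF mice on alcohol, and it did in the average over the 4 groups, at 0.53 ± 0.17 (SE, adjusted p = 0.010). Gzmb, granzyme B, had 0.62 ± 0.36 (SE, adjusted p = 0.21) in FF mice on chow, and Gzma, granzyme A, stayed at 2.30 CPM or less and was not tested.

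Of the 3 NK cell receptor genes only Klrk1 passed the filter, and it was not called in tumors against non-tumor liver. Klrk1, which encodes the activating receptor NKG2D and ranged from 0.599 to 5.44 CPM, was lower in the tumor than in the non-tumor liver of 9 of the 11 mice that gave both, and its log2 fold changes were -0.15 ± 0.27 (SE, adjusted p = 0.75) in dHEP mice on alcohol, -0.26 ± 0.27 (SE, adjusted p = 0.54) in FF mice on alcohol, -0.11 ± 0.32 (SE, adjusted p = 0.82) in dHEP mice on chow and 0.65 ± 0.32 (SE, adjusted p = 0.12) in FF mice on chow. Klrd1, which encodes CD94, and Ncr1 were highest at 2.66 CPM and 0.617 CPM and did not pass the filter. With no filter on low values Klrd1 was called in FF mice on chow. Of the type 1 effector genes, Il2rb and Cxcr3 rose in FF chow tumors and Ccl5 did not pass the test. Il2rb encodes the beta chain of the receptor for interleukins 2 and 15. On alcohol, Il2rb read 1.99, 4.31, 2.97 and 0.665 CPM in dHEP tumors against 3.64, 2.04, 2.21 and 1.77 CPM in dHEP non-tumor liver, and 2.16, 1.91, 1.79 and 1.13 CPM in FF tumors against 2.66, 2.002, 1.58 and 0.832 CPM in FF non-tumor liver. On chow, Il2rb read 9.59, 3.91 and 1.69 CPM in dHEP tumors against 4.69, 1.56 and 1.60 CPM in dHEP non-tumor liver, and 8.77, 3.53 and 19.5 CPM in FF tumors against 2.82, 4.17 and 1.84 CPM in FF non-tumor liver. The tumor of FF-168 lay within the non-tumor range, and the log2 fold change was 1.34 ± 0.49 (SE, adjusted p = 0.041). Ccl5 encodes a chemokine made by activated T and NK cells. On alcohol, Ccl5 read 0.662, 4.38, 1.08 and 0.466 CPM in dHEP tumors against 1.43, 1.89, 0.572 and 0.614 CPM in dHEP non-tumor liver, and 1.17, 2.20, 1.79 and 0.333 CPM in FF tumors against 0.836, 3.60, 1.91 and 0.448 CPM in FF non-tumor liver. On chow, Ccl5 read 8.22, 3.33 and 0.675 CPM in dHEP tumors against 1.22, 2.22 and 0.942 CPM in dHEP non-tumor liver, and 6.08, 2.81 and 13.8 CPM in FF tumors against 2.61, 2.17 and 1.24 CPM in FF non-tumor liver. Its FF chow tumors were above all of their non-tumor livers, FF-168 only just, and the log2 fold change of 1.32 ± 0.56 (SE, adjusted p = 0.078) missed the threshold. Cxcr3, which encodes the receptor through which T cells follow CXCL9 and CXCL10, averaged 3.63 ± 3.13 CPM in FF chow tumors and 0.866 ± 0.163 CPM in FF chow non-tumor liver (SD, n = 3 each), a log2 fold change of 1.08 ± 0.39 (SE, adjusted p = 0.038) with overlapping groups. Tbx21, which encodes the type 1 factor T-bet, was highest at 1.81 CPM and did not pass the filter, and it was called in FF mice on chow with no filter.

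In dHEP mice on chow the count depended on 1 tumor. Without the tumor of dHEP-165, 10 genes were called (Cd3g, Cd8a, Cd8b1, Lck, Cd5, Cd27, Pdcd1, Ctla4, Jchain and Mzb1), and without any other of the 6 libraries 0 were. Of the 10, Cd5, Pdcd1, Ctla4 and Mzb1 reached 1 CPM in tumors only, and Cd3g and Cd8b1 reached it in 1 non-tumor liver each. The share of all genes called in these fits is not given here, so the counts have no background beside them. The summed T and NK cell level leaving out Zap70 was 42.5 ± 36.1 CPM in dHEP chow tumors against 18.1 ± 6.33 CPM in dHEP chow non-tumor liver, and 84.7 ± 65.2 CPM in FF chow tumors against 20.1 ± 3.28 CPM in FF chow non-tumor liver (SD, n = 3 each). On alcohol it was 20.2 ± 17.8 CPM in dHEP tumors against 13.9 ± 3.12 CPM in dHEP non-tumor liver, and 18.4 ± 5.88 CPM in FF tumors against 17.7 ± 7.20 CPM in FF non-tumor liver (SD, n = 4 each). The SD between chow tumors was not far below their mean.

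Genes of the same pathways outside the 34 were read from lists of other markers. Among other T and NK cell genes, 15 of the 28 tested rose in FF chow tumors, and the median log2 fold change of the 28 was 0.96 against 0.16 over all tested genes. The smallest adjusted p-values were those of Slamf7, an activating receptor of NK, T and plasma cells (log2 fold change 1.94), Il7r, the interleukin 7 receptor (1.71), and Il18rap, a chain of the interleukin 18 receptor (1.45). Of other B and plasma cell genes 9 of 16 tested rose and 0 fell in FF chow tumors, with a median of 1.18. The whole list summed to 188, 67.1 and 359 CPM in FF chow tumors against 24.5, 31.8 and 15.1 CPM in FF chow non-tumor liver. Of all genes, 21.2% were called higher in FF chow tumors. Pou2af1, a B cell coactivator of octamer factors, averaged 11.9 CPM in FF chow tumors and 0.658 CPM in FF chow non-tumor liver. Prdm1, which encodes the plasma cell factor Blimp-1, averaged 8.15 CPM in these tumors and 0.843 CPM in the non-tumor liver. Tnfrsf13b, which encodes the receptor TACI, averaged 4.65 CPM in these tumors and 0.428 CPM in the non-tumor liver. The antibody heavy chain gene Ighg2c averaged 103 CPM in the tumors and 4.55 CPM in the non-tumor liver, and the light chain gene Iglc2 19.0 CPM in the tumors and 1.23 CPM in the non-tumor liver. Both antibody genes belong to families of near-identical genes, so their reads may be shared out between copies. In dHEP mice on chow Slamf7 and Lat of the T and NK list (2 of 28) and Prdm1 and Pou2af1 of the B and plasma list (2 of 16) rose. There 17.2% of all genes were called higher, so neither list exceeded that share. On alcohol Slamf7 rose in dHEP mice and Themis fell in FF mice, and 0 of the 16 B and plasma cell genes were called in either genotype by limma (0 at an unadjusted p below 0.05 in each). Of all genes, 20.4% were called in either direction in dHEP mice on alcohol and 24.6% in FF mice on alcohol. The shares at an unadjusted p below 0.05 were 33.5% in dHEP mice and 35.9% in FF mice.

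Factors that draw or hold lymphocytes were measured in the same fit. In FF chow tumors 6 of 15 tested rose and 3 fell, with a median log2 fold change of 1.04. Of all genes, 21.2% were called higher there and 9.55% lower. The interferon-induced chemokine Cxcl9 averaged 175 CPM in FF chow tumors and 19.0 CPM in FF chow non-tumor liver, and the adhesion molecules Vcam1 and Icam1 had log2 fold changes of 1.70 and 1.97. Cxcl12, a chemokine that holds B cells and plasma cells in their niches, was lower in tumors of all 4 groups, with log2 fold changes of -1.34 in dHEP mice on alcohol, -1.91 in FF mice on alcohol, -1.83 in dHEP mice on chow and -1.74 in FF mice on chow. Of the 15, 6 rose and 3 fell in dHEP mice on chow as well, where 17.2% of all genes were called higher and 10.7% lower. On alcohol 0 rose and 3 fell in dHEP mice, and 1 rose and 2 fell in FF mice, the 1 being the B cell chemokine Cxcl13. Of all genes, 12.9% were called higher and 7.54% lower in dHEP mice on alcohol. The shares in FF mice on alcohol were 13.9% higher and 10.6% lower.

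Markers of other cells were counted in FF chow tumors too, where 21.2% of all genes were called higher and 30.8% in either direction. Of pan-leukocyte genes 9 of 12 rose, and their summed level was 292 to 497 CPM in FF chow tumors against 226 to 309 CPM in FF chow non-tumor liver. Of dendritic cell genes 5 of 10 tested rose, with sums of 223 to 394 CPM in tumors against 65.4 to 80.8 CPM in non-tumor liver. Of Kupffer cell and macrophage genes 6 of 19 rose, with sums of 540.0 to 1086 CPM in tumors against 405 to 830.2 CPM in non-tumor liver, so the sums overlapped. Stellate cell and fibroblast genes rose in 5 of 10, with sums of 908 to 2097 CPM in tumors against 399 to 513 CPM in non-tumor liver, and endothelial genes in 3 of 10, with overlapping sums of 512 to 655 CPM in tumors against 298 to 541 CPM in non-tumor liver. Of hepatocyte genes 2 rose and 3 fell among 10, with sums of 132957 to 147392 CPM in tumors against 96101 to 98079 CPM in non-tumor liver. Neutrophil and cholangiocyte genes gave 0 calls by limma, among 5 tested in each (0 neutrophil and 2 cholangiocyte genes at an unadjusted p below 0.05), and the neutrophil marker Ly6g was at 0 in all 6 of these libraries. Of all genes, 41.4% were at an unadjusted p below 0.05 in this comparison. The part of these cells, and of the difference in depth, in the lymphocyte differences was not tested.

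Alcohol was set against chow to ask how diet went with lymphocyte genes in tumors. Median summed levels were lower in alcohol tumors than in chow tumors, the ranges overlapped, and no gene passed the test. Jchain ranged from 7.99 to 66.0 CPM with a median of 28.1 CPM in 8 alcohol tumors, and from 9.25 to 796 CPM with a median of 168.8 CPM in 6 chow tumors. Of the 6 chow tumors 5 lay above all 8 alcohol tumors for Jchain, and that of dHEP-165 lay low among them. For the summed T and NK cell level the count was 5 of 6 with Zap70 and 3 of 6 without it. Without Zap70 the sum had a median of 16.8 CPM (7.11 to 46.5) in alcohol tumors and 53.05 CPM (10.6 to 156) in chow tumors. For the summed B and plasma cell level the count was 5 of 6 with or without Jchain, and the whole sum had a median of 31.5 CPM (10.3 to 71.2) in alcohol tumors and 178 CPM (12.02 to 831) in chow tumors. In the fit of the 14 tumors limma called 0 of the 26 tested genes, averaged over genotypes, where 0% of all genes were called. At an unadjusted p below 0.05 were 21 of the 26, against 11.5% of all genes. Pdcd1, Ctla4, Cd3e and Foxp3 reached 1 CPM in no alcohol tumor, so they entered this fit through chow tumors only. Cd3d, Cd3g, Cd2, Cd5, Cd8b1, Cd27, Gzmb, Gzmk, Cxcr3 and Mzb1 reached it in too few alcohol tumors to pass there. Most of the genes followed the CD3 chains across the same tumors, so the 21 are not separate results. The log2 fold change of alcohol over chow, averaged over genotypes, was -2.58 ± 0.65 (SE, adjusted p = 0.22) for Jchain and -1.38 ± 0.33 (SE, adjusted p = 0.20) for Mzb1. By genotype that of Jchain was -0.93 ± 0.92 (SE, adjusted p = 0.74) in dHEP tumors and -4.22 ± 0.92 (SE, adjusted p = 0.80) in FF tumors, with 0 genes called in each (0 at an unadjusted p below 0.05 in dHEP tumors and 20 in FF tumors). Of all genes, 0.00757% were called in dHEP tumors and 0% in FF tumors. The shares of all genes at an unadjusted p below 0.05 were 10.9% in dHEP tumors and 5.44% in FF tumors. These comparisons use the same FF chow tumors as the comparison with non-tumor liver. Without FF-168 Pdcd1 was called in the average, and 0 were without any other library.

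In non-tumor liver 11 of the 34 genes passed the filter, 8 of T and NK cells and 3 of B and plasma cells. Limma called 0 of them between alcohol and chow averaged over genotypes, where 3.66% of all genes were called, and 2 were at an unadjusted p below 0.05. Of all genes, 17.9% were at an unadjusted p below 0.05, a share close to 2 of 11. The 2 genes were Zap70, with a log2 fold change of alcohol over chow of -0.46 ± 0.18 (SE, adjusted p = 0.19), and Jchain, with -0.86 ± 0.38 (SE, adjusted p = 0.25). Within each genotype 0 were called as well, with 1 at an unadjusted p below 0.05, where 0.656% of all genes were called in dHEP mice and 0.577% in FF mice. Whether the tumor to non-tumor difference changed with diet was tested as an interaction, and limma called 0 genes in either genotype, where 0% of all genes were called. At an unadjusted p below 0.05 were 0 of the 26 in dHEP mice and 17 in FF mice, against 6.42% of all genes in dHEP mice and 5.93% in FF mice. The 17 were read in the same few libraries and are not separate results. For Jchain the interaction was -0.39 ± 1.13 (SE, adjusted p = 0.98) in dHEP mice and -3.04 ± 1.13 (SE, adjusted p = 0.81) in FF mice.

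Loss of Il17ra in hepatocytes was tested by setting dHEP against FF mice. Limma called 0 of the tested genes of the list in tumors and in non-tumor liver, on either diet and on average, and 0% of all genes were called in each of these comparisons. In alcohol tumors 0 of the 26 were at an unadjusted p below 0.05, in non-tumor liver 0 of the 11 were, and in tumors averaged over diets 1 was. The shares of all genes were 6.31% in alcohol tumors, 4.65% to 8.51% in non-tumor liver and 3.05% in tumors averaged over diets. In chow tumors 5 of the 26 were at an unadjusted p below 0.05 (Jchain, Mzb1, Cd79a, Klrk1 and Zap70), against 2.86% of all genes. These 5 were read in the same few tumors and are not separate results. The log2 fold change of dHEP over FF in chow tumors was -2.70 ± 0.98 (SE, adjusted p = 0.9996) for Jchain, whose dHEP tumors read 179, 146 and 9.25 CPM and FF tumors 582.0, 158.7 and 796 CPM, so the groups overlapped. For alcohol tumors the Jchain value was 0.60 ± 0.85 (SE, adjusted p = 0.97). The interaction of genotype and diet in tumors gave 0 calls, with 2 genes at an unadjusted p below 0.05, Zap70 at 2.66 (adjusted p = 0.88) and Jchain at 3.29 (adjusted p = 0.99). In non-tumor liver it gave 0 calls and 1 gene at an unadjusted p below 0.05. Of all genes, 4.945% were at an unadjusted p below 0.05 for this interaction in tumors and 6.88% in non-tumor liver.

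Across the 14 tumors most of the genes followed the CD3 chains. The level of each of the other 31 genes was set against the summed level of Cd3d, Cd3e and Cd3g, as log2(CPM + 1). These 31 correlations describe the 14 libraries, whose points share depth and a few libraries in which most of the genes were high, and they carry no test because the genes were chosen as 1 list. Lck had a Pearson's r of 0.97 and a Spearman's rho of 0.96, and its rho was 0.86 within the 8 alcohol tumors and 1 within the 6 chow tumors. Il2rb, Cd5 and Ccl5 had rho values of 0.95, 0.94 and 0.96. Jchain had r of 0.88 and rho of 0.87, and its rho was 0.57 within alcohol tumors and 0.89 within chow tumors. Leaving out the tumors of FF-169 and dHEP-155, the 2 farthest from the median of the CD3 sum, gave r of 0.95 for Lck and 0.83 for Jchain. Zap70, although the most abundant T cell gene of the list, had r of 0.34 and rho of 0.31, and r of 0.32 without those 2 tumors. Within diets its rho was -0.29 in alcohol tumors and 0.20 in chow tumors. Ncr1 had r of 0.28 and rho of 0.30, at levels of few reads.

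**Figure D4:**
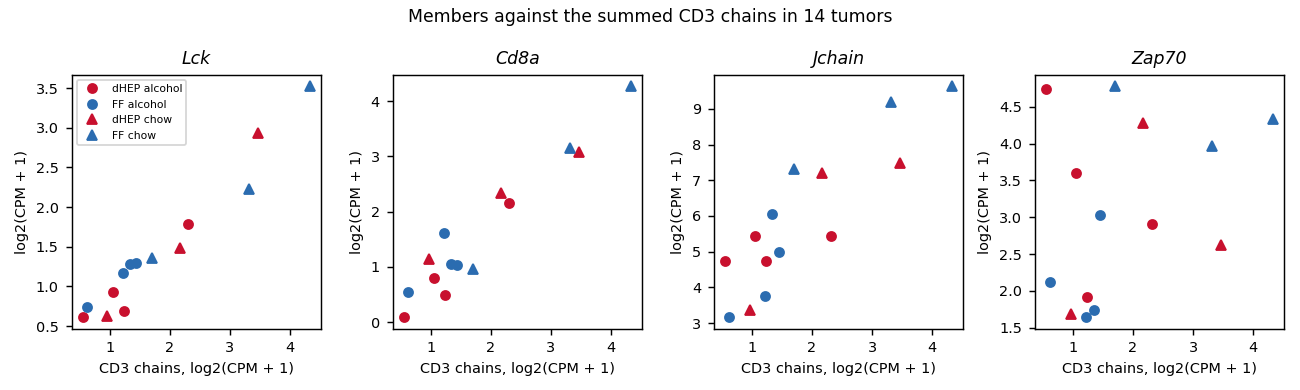
Level of Lck, Cd8a, Jchain and Zap70 against the summed level of Cd3d, Cd3e and Cd3g in the 14 tumors, both as log2(CPM + 1); circles are alcohol and triangles chow, red dHEP and blue FF. Lck, Cd8a and Jchain climb with the CD3 sum, and Zap70 (r = 0.34) does not.

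The promoters of genes that were high in the same tumors were read for the letters of 3 motifs of lymphocyte transcription factors, in the 250 bases before the RefSeq start of the gene and on both strands. RefSeq (GRCm38.p6) gave such promoters for 25 of the 34 genes, 30 promoters in all. Below are the promoters of Jchain (chr5:88527898-88528147, minus strand), Cd79a (chr7:24897247-24897496, plus strand), Cd5 (chr19:10738975-10739224, minus strand) and Ctla4 (chr1:60908775-60909024, plus strand). They are shown as the genes with calls in FF chow tumors from 4 roles, plasma cell, B cell, T cell surface and inhibitory receptor. Each runs 5′ to 3′ along its gene, and capitals mark the ETS core AGGAAG or its reverse complement CTTCCT.
Jchain: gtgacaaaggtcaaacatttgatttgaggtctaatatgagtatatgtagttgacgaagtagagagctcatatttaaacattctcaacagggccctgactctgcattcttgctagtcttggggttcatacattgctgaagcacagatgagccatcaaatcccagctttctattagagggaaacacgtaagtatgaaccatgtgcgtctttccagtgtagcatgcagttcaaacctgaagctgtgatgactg
Cd79a: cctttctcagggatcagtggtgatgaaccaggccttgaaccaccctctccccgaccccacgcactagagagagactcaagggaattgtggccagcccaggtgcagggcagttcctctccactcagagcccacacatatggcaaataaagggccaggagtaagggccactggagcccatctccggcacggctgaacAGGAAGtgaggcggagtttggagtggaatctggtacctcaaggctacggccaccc
Cd5: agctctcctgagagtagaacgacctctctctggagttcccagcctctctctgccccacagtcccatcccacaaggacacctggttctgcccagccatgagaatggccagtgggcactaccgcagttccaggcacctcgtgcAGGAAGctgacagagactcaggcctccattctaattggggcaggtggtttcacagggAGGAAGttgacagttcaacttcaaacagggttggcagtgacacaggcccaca
Ctla4: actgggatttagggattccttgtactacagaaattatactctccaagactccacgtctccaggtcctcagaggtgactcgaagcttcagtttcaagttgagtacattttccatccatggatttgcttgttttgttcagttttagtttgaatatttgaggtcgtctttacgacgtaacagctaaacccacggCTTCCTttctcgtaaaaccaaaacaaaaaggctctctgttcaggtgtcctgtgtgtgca
The ETS core was found for 12 of 21 T and NK cell genes and for 1 of 4 B and plasma cell genes, Cd79a, against 29.5% of 32851 promoters and 32.3% of genes with a promoter in the table. In Cd79a it began 55 bases before the RefSeq start, in Cd5 109 and 52 bases before, and in Ctla4 59 bases before on the opposite strand. The RefSeq starts of these 3 genes lie inside the gene bounds of the Ensembl annotation, 116 bases past the Ensembl start in Cd79a, 28 in Cd5 and 22025 in Ctla4, so these windows reach into the Ensembl genes. The RUNX core TGTGGT was found for 9 of 21 T and NK cell genes (Cxcr3, Gzma, Gzmb, Klrk1, Lck, Ncr1, Nkg7, Prf1 and Zap70) and for 0 of 4 B and plasma cell genes, against 14.05% of promoters and 15.9% of genes. The octamer ATGCAAAT, the site of the OCT factors that Pou2af1 binds, was found for 0 of 21 and 0 of 4, against 1.60% of promoters. A gene with several promoters was counted if any of them held the motif. The Jchain window held none of the 3, which says only that these letters are absent from these 250 bases.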

How the data were processed

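The deposited table holds CPM per gene for 28 libraries, each summing to 1000000. Per the submitters' processing notes the tools were STAR 2.5.1a and RSEM 1.3.0 with GRCm38, and their order and settings are not given in the sources used here. RSEM splits reads between overlapping genes, which gives fractional values. The labels give polyA RNA as the molecule and name a stranded total RNA kit. Depth was recovered from the CPM that 1 read is worth. Of values up to 20 reads, 86.3% were whole to within 0.1 read, too few for a count model.

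The deposited CPM were analysed as log2(CPM + 1) with limma 3.58.1 in R 4.3.3 (moderated variances with a mean-variance trend), on genes that reached 1 CPM in 3 or more fitted libraries, with Benjamini-Hochberg adjustment over all tested genes and calls below 0.05. All 28 libraries (13503 genes) served tumor against non-tumor liver and diet by tissue, and the 14 tumors (13205 genes) or 14 non-tumor livers (12651 genes) served genotype and diet. Fold changes on this scale understate those of low genes. The p-values measure the spread between libraries of a group, which in fits of 1 tissue is the spread between mice. The fit of all 28 libraries did not use the pairing of tumor and non-tumor liver by mouse. The scripts were tested on simulated data.

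All 34 genes are accounted for. Values in every library are given for the 12 genes of smallest adjusted p among those called in any comparison, and for the 4 T or NK and 3 B or plasma cell genes of highest mean. From 11 further lists, up to 3 genes of smallest p were named per comparison, and any gene named beyond that was picked with its values in view. The genes and lists were chosen with earlier results of these data known. Of the further lists Trac, Trbc1, Trbc2, most constant-region antibody genes and Cxcl11 were not analysed here. The result of 1 further gene of the T and NK list is not reported here.

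Same-numbered tumor and non-tumor libraries come from the same mouse. Their deviations from group means correlated at 0.16 to 0.36 in FF mice on alcohol, -0.11 to 0.25 in dHEP mice on alcohol and 0.07 to 0.19 in dHEP mice on chow, and 9 of 11 tumors correlated best with their own mouse. The mouse number was used as a block in an alternative fit. Other alternatives were a pseudocount of 0.5, other filters, median-of-ratios scaling, fits limited to the groups compared, and omission of each library in turn.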

Additional observations from a re-analysis of the deposited data

Results flagged for a closer look

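Samples that stood far from the rest of their group were looked for in groups of 4, that is on alcohol. Of 92 groups of values 9 held such a sample, where about 1 in 20, or 4.6, would be expected by chance if the values were independent and normally spread. The genes share libraries and many values rest on few reads, so the 9 cannot be read as an excess. The tumor of dHEP-520 held 5 of the 9. It was the highest dHEP alcohol tumor for Cd2 at 1.15 CPM (next 0.414 CPM), Gzmk at 1.08 CPM (next 0), Nkg7 at 2.95 CPM (next 0.414 CPM), Ccl5 at 4.38 CPM (next 1.08 CPM) and Pdcd1 at 0.791 CPM (next 0.0675 CPM). The non-tumor liver of FF-595 was the lowest of its group for Zap70 at 3.39 CPM (next 7.12 CPM) and for Cd79b at 0.256 CPM (next 1.12 CPM). The tumor of the same mouse had the lowest summed T and NK cell level among FF alcohol tumors, 13.2 CPM (next 24.5 CPM). The non-tumor liver of dHEP-549 was the highest of its group for Cd5 at 0.490 CPM (next 0.238 CPM).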

How the results depend on the processing

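With the mouse number as a block, the genes called in tumors against non-tumor liver were 1 in dHEP mice on alcohol, 1 in FF mice on alcohol (Jchain in both) and 4 in dHEP mice on chow. The average over the 3 groups whose libraries pair gave 7 with the block and 5 without it, and the block changed no call in the interactions of diet and tissue. No paired analysis was possible because the numbers differ between tissues in FF mice on chow, and comparisons within 1 tissue hold 1 library per mouse. Fits of the compared groups only called 1 in dHEP mice on alcohol (Jchain), 1 in FF mice on alcohol (Prf1), 0 in dHEP mice on chow and 4 in FF mice on chow (Zap70, Cd79a, Jchain and Mzb1). No filter on low values gave 0 in dHEP mice on chow, 17 in FF mice on chow (gaining Klrd1, Tbx21 and Tnfrsf17 and losing Cd8a, Lck and Il2rb) and 21 in the average. Without the tumors of FF-169 and dHEP-549, a choice made after seeing the data, 3 were called in FF mice on chow and 14 in the average. Leaving out 1 library at a time gave 0 to 1 in dHEP mice on alcohol, 0 to 1 in FF mice on alcohol, 0 to 10 in dHEP mice on chow, 4 to 21 in FF mice on chow, 13 to 21 in the average, and 0 to 1 between diets in tumors averaged over genotypes. The 0 to 1 were Prf1 without the tumor of dHEP-550 and Jchain without the tumor of FF-595. The diet by tissue value of Jchain in dHEP mice, which was not called, ranged from -1.72 to 0.35 and turned positive without the tumor of dHEP-155 (0.35) or dHEP-164 (0.20). Adjusted p of Jchain over its alternatives ranged from 0.030 to 0.13 in dHEP mice on alcohol, 0.041 to 0.29 in FF mice on alcohol, 0.0007 to 0.22 in dHEP mice on chow and 0.00029 to 0.0024 in FF mice on chow. Values that rest on fewer than 10 reads limit most T and NK cell genes, and the cause of these shifts was not tested. The share of all genes called in each alternative fit is not given here, so these counts have no background beside them.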

Other observations

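Tumors on alcohol also differed from each other in T and NK cell genes. In dHEP mice on alcohol the tumor of dHEP-520 held 46.5 CPM of summed T and NK cell genes other than Zap70, and the other 3 held 7.11 to 14.7 CPM. That tumor was also the highest of the 4 in summed genes of Kupffer cells and macrophages (1715 CPM, next 726 CPM), stellate cells and fibroblasts (1647 CPM, next 654 CPM), cholangiocytes (751 CPM, next 77.1 CPM) and all leukocytes (395 CPM, next 206 CPM), and the part of these in its T cell level was not tested. The macrophage and cholangiocyte lists share Spp1, whose part in these sums was not tested. In the tumor of dHEP-520 the Prf1 level of 4.24 CPM was the highest of all 28 libraries, and so was the Gzmb level of 2.16 CPM. The tumor of dHEP-550 had 25.9 CPM of Zap70, next to the 26.5 CPM of the tumor of FF-168, which was the highest. In the tumor of FF-168 some T cell genes lay within the range of FF chow non-tumor liver (Cd8a 0.952 CPM, Lck 1.57 CPM), while Jchain read 158.7 CPM.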
